A study of Mus musculus with 14 samples.

Results

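The genes described here encode the machinery that moves secretory granules to the plasma membrane of mast cells and fuses them with it. They were chosen by function, with earlier results of these data known. The list holds 37 mouse genes in 7 roles, from Rab GTPases to proteins of the granule membrane. Of the 37 genes, 36 were matched by identifier to the 55487 genes of the count table, and Vamp7 was not analysed here. All 36 had enough counts to be tested.

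RNA was sequenced from 14 libraries, each made from a small pool of mast cells that had been sorted out of the ears of mice. Resident mast cells of non-treated mice gave 5 libraries (numbers 1 to 5, called untreated resident below), and resident mast cells of mice treated with MC903 gave another 5 (numbers 6 to 10, MC903 resident). MC903 is calcipotriol, a vitamin D analogue that produces a dermatitis resembling atopic dermatitis when applied to mouse skin. The remaining 4 libraries (numbers 11, 13, 14 and 15, MC903 bone marrow) came from MC903-treated mice and are labelled as bone marrow mast cells. The protocol in the labels names only resident cells and cells positive for integrin β7, so these 4 libraries are taken to be the integrin β7-positive cells of the skin. Strain, age, dose, length of treatment and the animals behind each pool are not given in the sources used here. Whether libraries of a group came from separate mice is therefore unknown, and p-values measure the spread between these libraries, which may be technical.

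Mast cells store histamine, proteases and proteoglycans in large lysosome-related granules and release them when the high-affinity IgE receptor or other surface receptors are engaged. Rab GTPases on the granule surface recruit effectors that tie the granule to actin and to the plasma membrane. Vesicle SNAREs of the VAMP family then pair with target SNAREs of the syntaxin and SNAP families, and this pairing fuses the membranes. Munc18 proteins (the Stxbp genes), Munc13 proteins (the Unc13 genes) and complexins assemble and hold the SNARE complex, and calcium sensors such as synaptotagmins tie its closing to a rise of calcium. Tetraspanins and LAMP proteins sit in the granule membrane and appear on the cell surface after release, which is why CD63 is used as a degranulation marker.

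Total counts ranged from 13068078 to 31781926 per library, and 27 members had more than 3 counts in every library. The number of genes detected was highest in libraries 8, 7 and 15 (35246, 34560 and 32814). All 10 mast cell markers examined (among them Kit, Fcer1a and Cpa3) were detected in each library, with a summed level of 85398 to 110812 CPM (counts scaled to the library total) in untreated resident, 105119 to 159891 in MC903 resident and 102545 to 155187 in MC903 bone marrow libraries. Library 15 stood apart in its macrophage and dendritic cell markers. Their summed level over 7 genes was 9021 CPM in that library, against 80.0 to 326 CPM in the other 3 MC903 bone marrow libraries, 54.3 to 137 CPM in untreated resident and 51.9 to 171 CPM in MC903 resident libraries. Mitochondrial genes took 1.22% to 1.70% of counts in untreated resident, 2.39% to 3.96% in MC903 resident and 2.14% to 4.24% in MC903 bone marrow libraries. Whether these differences have a part in the results below was not tested.

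The set as a whole was expressed over a wide range, and most of it did not differ between the groups beyond the test's threshold. On the scale of CPM per kilobase of exon (RPKM), which allows levels of different genes to be compared, 18 members had a mean of at least 10 over all libraries, 9 lay between 1 and 10, and 9 were under 1. Cd63 led with 742 RPKM, followed by Rab7 (124), Vamp8 (91.7), Lamp1 (81.7), Rab27b (56.8) and Stxbp2 (52.8). The members under 1 RPKM were Cplx2, Dock5, Sytl2, Syt9, Exph5, Syt2, Syt1, Doc2a and Sytl4. Members of at least 10 RPKM had a median coefficient of variation between libraries of 0.217 in untreated resident, 0.168 in MC903 resident and 0.276 in MC903 bone marrow cells, with highest values of 0.321, 0.376 and 0.636, the last that of Unc13d. The median was 0.991, 0.984 and 1.17 for members under 1 RPKM.

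**Figure D1:**
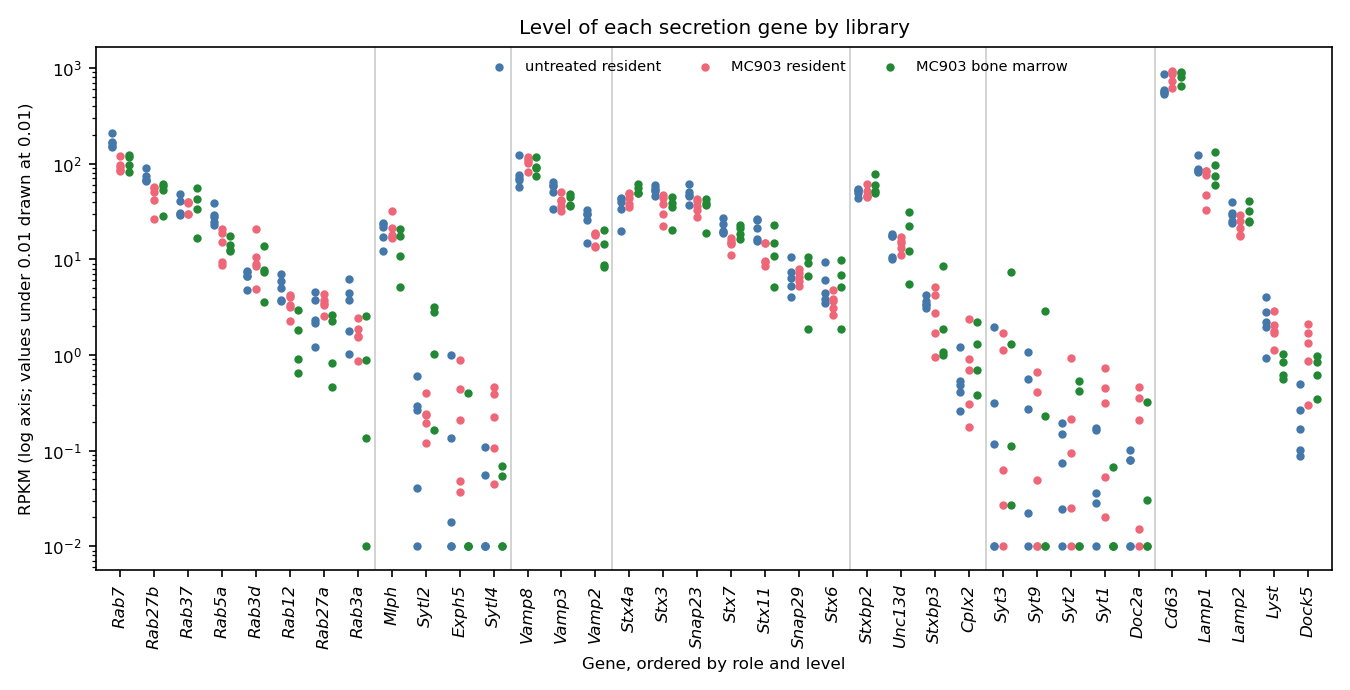
RPKM of the 36 members in each library on a log axis, with genes on the horizontal axis ordered by role and level and 1 point per library coloured by group. Cd63 lies above all other members and the calcium sensors lie at the bottom with points spread widely, while the points of the 3 groups lie close together for most abundant members.

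The 3 comparisons below follow from the groups: MC903 resident with untreated resident cells, MC903 bone marrow with MC903 resident cells, and MC903 bone marrow with untreated resident cells. They share libraries and are not independent of each other. In MC903 resident cells, 2 of the 36 members were lower than in untreated resident cells, Rab5a and Rab7, and none was higher, at an adjusted p under 0.05 in edgeR's quasi-likelihood test. Over all 21014 genes tested, 2.25% were called in that comparison, 1.68% as lower. In MC903 bone marrow cells, 4 members were lower than in untreated resident cells, Rab5a, Rab7, Vamp2 and Lyst, and none was higher, against 6.87% of all genes called and 3.37% called as lower. Between the 2 kinds of mast cell of MC903-treated mice, no member was called, against 2.27% of all genes. In that comparison 4 members had an unadjusted p under 0.05 (Sytl2, Stx7, Lamp2 and Lyst), 2 were called by the DESeq2 Wald test (Sytl2 and Lyst), 1 by limma (Syt1) and 3 by edgeR with an offset for gene length (Sytl2, Stx4a and Lamp2). Over all 21014 genes, the Wald test called 1720, limma 2017 and the offset fit 1443. The share of all genes with an unadjusted p under 0.05 is not given. The shares of called members are read against these backgrounds with one limit, since abundant genes are called more often. Among the 8195 genes that averaged 10 CPM or more, which include 25 members, 5.48%, 5.21% and 15.3% were called in the 3 comparisons in the order above. Called as lower were 4.31%, 1.88% and 7.53%, and all called members were lower and belong to this class. In bulk RNA, fewer cells of a type and less RNA per cell cannot be told apart.

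Taken over all 36 members, low and abundant alike, the log2 fold changes had medians near 0. Their median was -0.05 in MC903 resident against untreated resident cells, where that of all genes tested was 0.24, and 15 members had positive and 21 negative values. By role, the median there was -0.62 for Rab GTPases, -0.57 for target SNAREs and -0.41 for vesicle SNAREs. It was -0.33 for granule membrane and biogenesis proteins, -0.04 for SNARE assembly proteins and 0.29 for Rab effectors. For the calcium sensors, with many libraries at or near 0, it was 1.51. For MC903 bone marrow against MC903 resident cells the medians were 0.02 for members and -0.28 for all genes, and against untreated resident cells they were -0.08 and -0.14. Among the 8195 genes of at least 10 CPM, which include 25 members, the medians were -0.16, 0.18 and -0.0061 in the same order. The members' medians above also cover members under 10 CPM, and no median of the 25 alone is given. On which side of a background the members lay is therefore not read from these medians. For 5 members the libraries did not overlap between MC903 resident and untreated resident cells (Rab27b, Rab5a, Rab7, Stx7 and Stx11, all lower), against 5.33% of all genes. A single member, Lyst, did not overlap between MC903 bone marrow and MC903 resident cells, against 8.29% of all genes. Between MC903 bone marrow and untreated resident cells 6 members did not overlap (Rab27b, Rab5a, Rab7, Rab12 and Stx3 lower, Stx4a higher), against 10.4% of all genes. Other ways of scaling the libraries shifted the log2 fold changes of all genes by a median of up to 0.45, so small fold changes have no fixed sign.

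**Figure D2:**
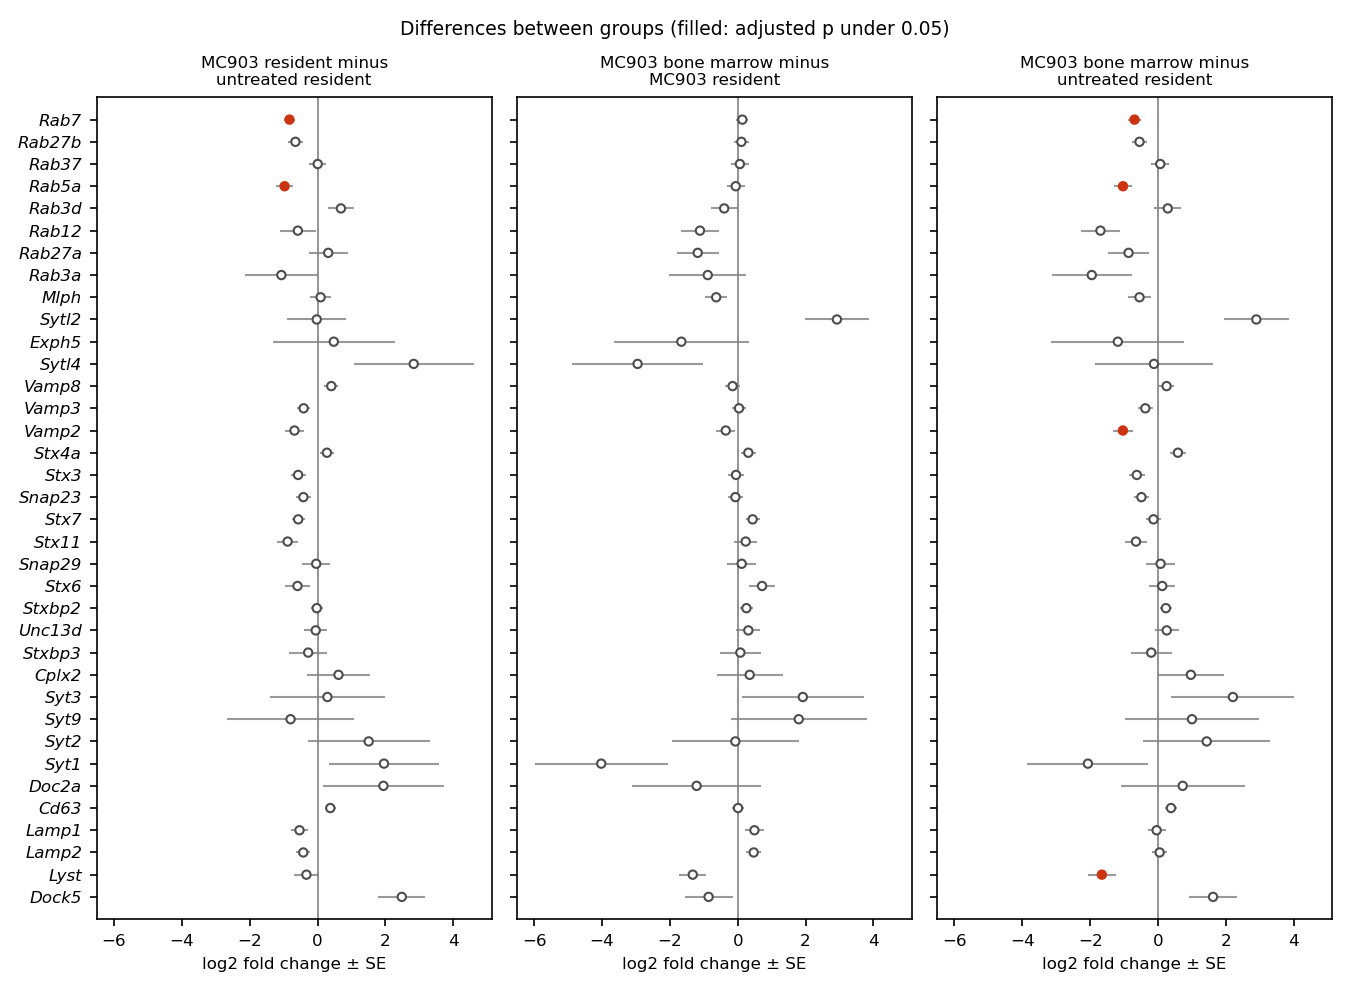
Log2 fold change ± SE of each member in the 3 comparisons, with genes as rows ordered by role and filled points for an adjusted p under 0.05. Filled points stand at Rab7 and Rab5a on the left, nowhere in the middle, and at Rab7, Rab5a, Vamp2 and Lyst on the right, and error bars are widest for members of low level such as the synaptotagmins.

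Rab GTPases held the difference that was most stable over the fits tried. Rab7 (ENSMUSG00000079477.9, GRCm38 chr6:87999106-88045270, minus strand) encodes the Rab of late endosomes and lysosomes, the compartments to which mast cell granules are related. Its level was 545, 392, 399, 435 and 433 CPM in untreated resident libraries 1 to 5. In MC903 resident libraries 6 to 10 it was 240.3, 222, 216, 315 and 249.8 CPM, and in MC903 bone marrow libraries 11, 13, 14 and 15 it was 250.5, 307, 213 and 322 CPM. Every untreated resident library lay above every library of MC903-treated mice, and library 1 was the highest of all. The mean was 441 ± 61.3 CPM (SD, n = 5) in untreated resident, 249 ± 39.5 CPM (SD, n = 5) in MC903 resident and 273 ± 50.6 CPM (SD, n = 4) in MC903 bone marrow cells. Rab7 fell by 0.83 ± 0.172 (SE) on the log2 scale in MC903 resident cells (edgeR adjusted p = 0.00893) and by 0.69 ± 0.183 (SE) in MC903 bone marrow cells (edgeR adjusted p = 0.0240), both against untreated resident cells. In MC903 resident cells the call held without any 1 of the 14 libraries (edgeR adjusted p from 0.00543 to 0.0391). It was lost when libraries 7, 8 and 15 were all left out (-0.72, edgeR adjusted p = 0.0776). The call in MC903 bone marrow cells was lost without library 1, 11 or 14 (adjusted p up to 0.0752 in edgeR) and with no filter on low counts (edgeR adjusted p = 0.0531), and with an offset for gene length the difference was -0.28 (edgeR adjusted p = 0.642). Without library 15, whose macrophage markers were high, the difference was -0.78 (edgeR adjusted p = 0.0149).

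Rab5a (ENSMUSG00000017831.8, chr17:53479234-53507680, plus strand) encodes a Rab of early endosomes, where it acts in endosome fusion. It stood at 144, 154, 129.9, 122 and 203 CPM in untreated resident libraries 1 to 5, 80.4, 49.2, 45.4, 109 and 100.3 CPM in MC903 resident libraries 6 to 10, and 65.1, 91.5, 75.0 and 63.5 CPM in MC903 bone marrow libraries 11, 13, 14 and 15. The lowest untreated resident library, number 4, lay above the highest library of MC903-treated mice, number 9, and libraries 7 and 8 were the lowest of all. Means were 151 ± 32.1 (SD, n = 5), 76.8 ± 28.9 (SD, n = 5) and 73.8 ± 12.8 CPM (SD, n = 4). Against untreated resident cells, Rab5a fell by 0.97 ± 0.248 (SE) on the log2 scale in MC903 resident cells (edgeR adjusted p = 0.0412) and by 1.03 ± 0.267 (SE) in MC903 bone marrow cells (edgeR adjusted p = 0.0205). The first call is close to the threshold: it was lost without any 1 of libraries 1 to 8 (edgeR adjusted p up to 0.117). Without libraries 7, 8 and 15 together the difference was -0.65 (edgeR adjusted p = 0.261). The second was lost without library 11 (edgeR adjusted p = 0.0611) and held without library 15 (-0.96, edgeR adjusted p = 0.0436), and both were lost with the offset for gene length (0.122 and 0.230).

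The stretches of DNA just upstream of the 2 Rab genes that fell are shown because these members moved together, with those of Lyst, which fell in MC903 bone marrow cells, and of Lamp1, which holds the most copies of the motif looked for. Each is the 250 bases before a transcription start in RefSeq's table for GRCm38.p6, written 5′ to 3′ on the strand of the gene, and capitals mark the E-box CACGTG, the letters bound by MITF and TFEB family factors. The windows are chr17:53478984-53479233 (plus strand) for Rab5a, chr6:88045271-88045520 (minus strand) for Rab7, chr13:13590159-13590408 (plus strand) for Lyst and chr8:13158911-13159160 (plus strand) for Lamp1.
Rab5a: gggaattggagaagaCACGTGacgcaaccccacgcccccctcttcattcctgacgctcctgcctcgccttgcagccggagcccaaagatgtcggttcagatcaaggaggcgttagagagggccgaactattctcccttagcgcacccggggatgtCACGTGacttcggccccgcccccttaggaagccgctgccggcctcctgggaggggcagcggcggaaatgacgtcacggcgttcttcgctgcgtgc
Rab7: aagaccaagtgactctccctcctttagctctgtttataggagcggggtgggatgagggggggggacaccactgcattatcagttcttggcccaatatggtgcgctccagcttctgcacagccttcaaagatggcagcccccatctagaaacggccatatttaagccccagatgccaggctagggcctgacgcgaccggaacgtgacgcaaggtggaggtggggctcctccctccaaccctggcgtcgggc
Lyst: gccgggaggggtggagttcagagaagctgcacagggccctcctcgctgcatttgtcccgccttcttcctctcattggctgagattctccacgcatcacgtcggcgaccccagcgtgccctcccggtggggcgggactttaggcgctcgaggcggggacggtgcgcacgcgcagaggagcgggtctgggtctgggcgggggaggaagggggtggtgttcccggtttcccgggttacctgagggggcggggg
Lamp1: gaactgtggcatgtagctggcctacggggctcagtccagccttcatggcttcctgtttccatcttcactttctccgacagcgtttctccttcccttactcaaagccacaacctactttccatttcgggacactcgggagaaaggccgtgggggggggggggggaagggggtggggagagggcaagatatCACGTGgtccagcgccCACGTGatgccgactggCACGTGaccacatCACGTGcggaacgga

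In Rab5a the E-boxes begin 235 and 95 bases before the start, and in Lamp1 they begin 61, 45, 28 and 15 bases before it. Neither the Rab7 window shown, nor the second Rab7 window in the table, nor that of Lyst holds CACGTG. The table had windows for 28 members, 34 in all. Of these 34, 6 (17.6%) held CACGTG, those of Lamp1, Mlph, Rab27a, Rab5a, Stx6 and Stxbp2, against 6.02% of all 32851 windows in the table. The longer form TCACGTGA, which contains CACGTG, occurred in 2 member windows, of Rab5a and Stx6 (5.88%), against 0.785% of all windows. Both motifs read the same on either strand. Median GC content was 60.8% in member windows and 52.4% in all windows. AGATAA, the GATA motif, was searched on both strands and found in 2 member windows (5.88%) against 9.99% of all. CATGTG, searched likewise, was in no member window against 12.3% of all. TGACGTCA, which also reads the same on either strand, was in 2 member windows, of Rab5a and Stxbp3 (5.88%), against 1.55% of all, and TGAGTCA on either strand in 1 (2.94%) against 4.46%. A match describes letters in a window and no binding was measured.

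Rab27b (ENSMUSG00000024511.15, chr18:69979131-70141605, minus strand) and Rab27a encode the pair of Rabs that dock mast cell granules at the plasma membrane, and Rab27b was the second most abundant Rab of the set. Rab27b was at 703, 722, 712, 784 and 964 CPM in untreated resident, 600.3, 284, 439.9, 605 and 545 CPM in MC903 resident, and 564, 618, 651 and 301 CPM in MC903 bone marrow libraries. All untreated resident libraries lay above all others, and the lowest values were those of libraries 7 and 15. The difference did not pass the test in MC903 resident cells (log2 fold change -0.65 ± 0.220, SE, edgeR adjusted p = 0.147) or in MC903 bone marrow cells (-0.54 ± 0.234, edgeR adjusted p = 0.179). Without library 15 the latter was -0.34 (edgeR adjusted p = 0.277), and without library 7 the former was -0.48 (edgeR adjusted p = 0.340). Rab27b was called as lower in MC903 resident cells with no filter on low counts (edgeR adjusted p = 0.0104) and by limma (adjusted p = 0.0263). Rab27a was far less abundant, at 2.81 ± 1.33 RPKM in untreated resident (SD, n = 5), 3.49 ± 0.669 in MC903 resident (SD, n = 5) and 1.54 ± 1.06 in MC903 bone marrow cells (SD, n = 4), and within each library Rab27b exceeded it 10.5 to 132 times in RPKM.

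The other Rabs did not pass edgeR's test over the 21014 genes in any comparison, while other fits called Rab12. Rab37, a Rab of secretory granules, was as abundant in each group, at 35.4 ± 8.52, 35.6 ± 5.15 and 37.2 ± 16.7 RPKM (SD, n = 5, 5 and 4), with log2 fold changes between 0.01 and 0.07. Rab3d, a granule Rab of exocrine and mast cells, was at 27.6 ± 4.72, 44.6 ± 24.7 and 33.8 ± 17.4 CPM. Rab12, reported to act in granule transport toward the cell centre, was at 11.2 to 21.4 CPM in untreated resident, 6.93 to 12.8 in MC903 resident and 1.94 to 8.89 in MC903 bone marrow libraries. The last 2 of these ranges overlap and the first and last do not. The difference of -1.69 ± 0.585 (SE) on the log2 scale did not pass the test (edgeR adjusted p = 0.0903). Rab12 was called in that comparison by the DESeq2 Wald test (adjusted p = 0.00309), with a filter at a mean of 10 CPM (edgeR adjusted p = 0.0474) and without library 11 (edgeR adjusted p = 0.0466). Rab3a, known from synaptic vesicles, ranged from 0 to 13.8 CPM over all libraries. Rab7 took 52.1% ± 4.3 of the summed RPKM of the 8 Rabs in untreated resident, 45.6% ± 4.3 in MC903 resident and 48.6% ± 11.4 in MC903 bone marrow cells (SD, n = 5, 5 and 4).

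Of the 4 Rab effectors, only Mlph was abundant. Mlph encodes melanophilin, which links Rab27 to myosin Va, and stood at 92.0, 128, 126, 116 and 64.5 CPM in untreated resident, 114, 90.8, 94.9, 90.0 and 173 CPM in MC903 resident, and 57.6, 93.3, 111 and 27.6 CPM in MC903 bone marrow libraries. The groups overlap, library 10 was highest and library 15 lowest. Since melanophilin is best known from melanocytes, the melanocyte markers Dct, Tyrp1, Tyr, Pmel and Mlana were examined, and the highest level of any of them was 10.8 CPM (Pmel in library 11). Mlph made up 97.0% ± 3.2, 96.0% ± 2.8 and 87.1% ± 7.2 of the summed RPKM of the effectors (SD, n = 5, 5 and 4).

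Sytl2, which encodes the Rab27 effector Slp2, was low in resident cells and varied widely in MC903 bone marrow cells. It was at 4.12, 3.68, 0.0748, 0.567 and 8.37 CPM in untreated resident, 5.55, 2.71, 3.34, 3.25 and 1.68 CPM in MC903 resident, and 44.6, 14.3, 39.3 and 2.27 CPM in MC903 bone marrow libraries. Libraries 11, 13 and 14 lay above every resident library, and library 15 lay among them. The log2 fold change was 2.92 ± 0.952 (SE) against MC903 resident and 2.90 ± 0.950 against untreated resident cells, neither past the threshold (edgeR adjusted p = 0.118 and 0.0730). Without library 15 both passed it, at 3.30 (edgeR adjusted p = 0.0473 against MC903 resident and 0.0282 against untreated resident cells). Both also passed it in the DESeq2 Wald test (adjusted p = 0.0309 and 0.0127), with no filter on low counts and with the offset for gene length. Against untreated resident cells limma called it too (adjusted p = 0.0225), as did edgeR without library 5 (adjusted p = 0.0445). Sytl2 was singled out after its values were seen, as were Rab27b, Rab12, Dock5, Stx3, Stx7 and Stx11. Sytl4 (granuphilin) and Exph5 (Slac2-b) did not exceed 2.38 and 10.6 CPM in any library, and each had 3 counts or fewer in 5 of the 14 libraries.

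**Figure D3:**
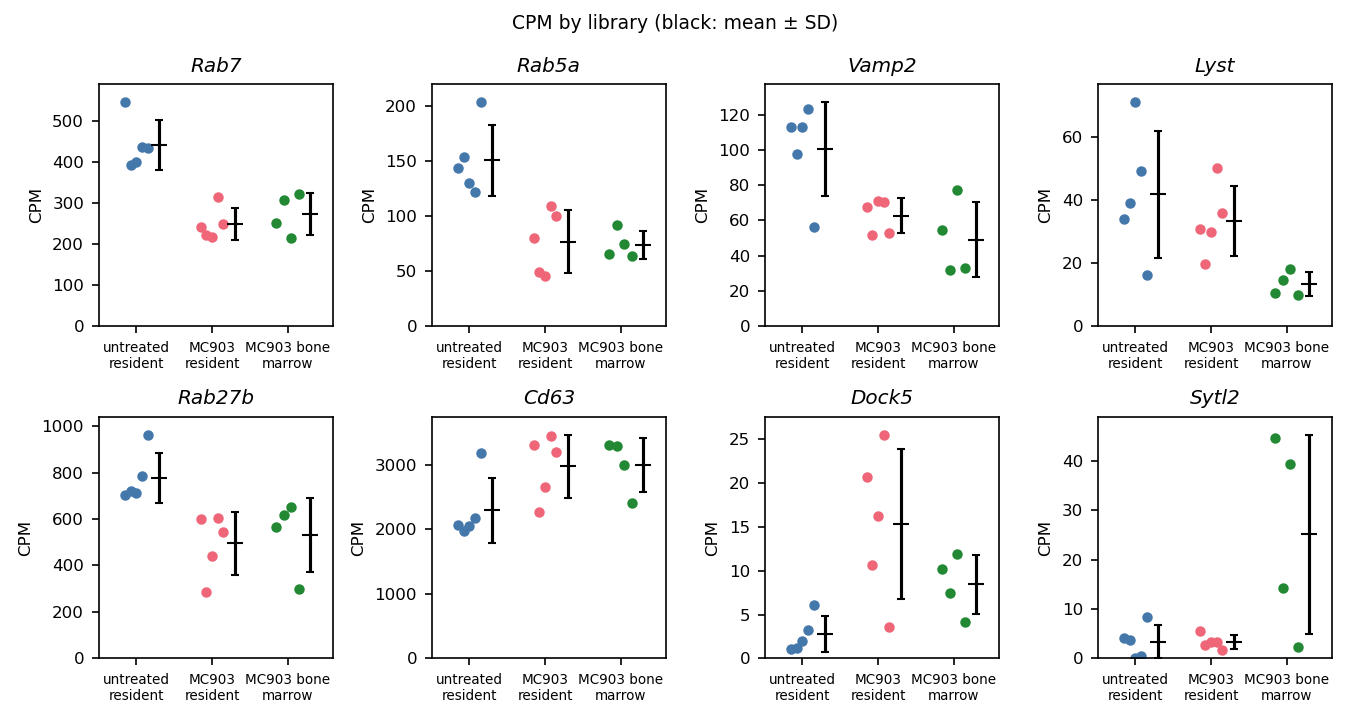
CPM of 8 members, with 1 point per library in order of library number and the mean ± SD of each group in black (n = 5, 5 and 4). Rab7 and Rab5a lie higher in untreated resident cells with no overlap, Lyst is lowest in MC903 bone marrow cells, and Sytl2 is high in 3 of 4 MC903 bone marrow libraries.

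Among vesicle SNAREs, Vamp8 was the most abundant, Vamp3 came next and Vamp2 was the only member that passed the test. Vamp2 (ENSMUSG00000020894.16, chr11:69088490-69092384, plus strand) encodes synaptobrevin-2. It was at 113, 97.6, 113, 123 and 56.2 CPM in untreated resident libraries, 67.8, 51.7, 71.2, 70.5 and 52.8 CPM in MC903 resident cells, and 54.6, 31.9, 77.3 and 33.0 CPM in MC903 bone marrow cells. Library 5 lay far below the other untreated resident libraries, and through it the groups overlap. Means were 101 ± 26.5 (SD, n = 5), 62.8 ± 9.74 (SD, n = 5) and 49.2 ± 21.4 CPM (SD, n = 4). Vamp2 fell by 1.03 ± 0.291 (SE) on the log2 scale in MC903 bone marrow against untreated resident cells (edgeR adjusted p = 0.0335), and its log2 fold change in MC903 resident cells was -0.68 ± 0.269 (edgeR adjusted p = 0.244). The call was lost without any 1 of libraries 1, 2, 3, 4, 11, 13 and 15 (edgeR adjusted p up to 0.109) and in a fit of only the 2 groups (edgeR adjusted p = 0.0771). It was also lost with an offset for gene length, at -0.69 (edgeR adjusted p = 0.258), and without libraries 7, 8 and 15 together (edgeR adjusted p = 0.106).

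Vamp8 encodes endobrevin, the vesicle SNARE of mast cell granules that is needed for regulated release. It was at 131, 162, 155, 176 and 281 CPM in untreated resident, 271, 191, 233, 260.0 and 244 CPM in MC903 resident, and 211, 209, 172 and 271 CPM in MC903 bone marrow libraries. Library 5 alone among the untreated resident libraries lay in the upper part of the MC903 range. The log2 fold change in MC903 resident against untreated resident cells was 0.41 ± 0.203 (SE), with an adjusted p of 0.430 in edgeR. Leaving out library 5 made it 0.71 (edgeR adjusted p = 0.0288). None of the 8 fits that kept all libraries but changed the method called Vamp8 there, and over them the log2 fold change ran from 0.11 to 0.60. Vamp3 (cellubrevin) was at 154 ± 35.2, 116 ± 20.1 and 119 ± 17.4 CPM (SD, n = 5, 5 and 4) and was not called. As a share of the summed RPKM of the 3 vesicle SNAREs, Vamp8 took 38.8% to 60.4% in untreated resident libraries, 62.1% to 70.3% in MC903 resident libraries and 56.6% to 67.4% in MC903 bone marrow libraries.

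None of the 7 target SNAREs was called in the 3 comparisons by edgeR's test over the 21014 genes, while other fits called Stx3 and Stx4a. Stx4a and Stx3 encode plasma membrane and granule syntaxins, and Snap23 encodes the partner that mast cells use in place of the neuronal SNAP-25. Stx4a was at 79.1, 92.7, 102, 99.8 and 46.4 CPM in untreated resident, 118, 104, 82.6, 115 and 89.9 CPM in MC903 resident, and 131, 116, 144 and 115 CPM in MC903 bone marrow libraries. Every MC903 bone marrow library lay above every untreated resident library, of which library 5 was the lowest. On the log2 scale this difference was 0.59 ± 0.225 (SE) and did not pass the test (edgeR adjusted p = 0.127). Against MC903 resident cells the difference was 0.31 (edgeR adjusted p = 0.495), and it was called with the offset for gene length (1.12, edgeR adjusted p = 0.0366). Stx3 was at 342, 314, 298, 305 and 264 CPM in untreated resident, 247, 126, 169, 266 and 217 CPM in MC903 resident, and 254, 222, 200.4 and 115 CPM in MC903 bone marrow libraries. All 4 MC903 bone marrow libraries were below library 5, the lowest untreated resident library, while MC903 resident library 9 was just above it. The log2 fold changes of Stx3 against untreated resident cells were -0.57 ± 0.220 in MC903 resident (edgeR adjusted p = 0.223) and -0.62 ± 0.235 in MC903 bone marrow cells (edgeR adjusted p = 0.124). Other fits called Stx3 as lower: limma in MC903 resident cells (adjusted p = 0.0371), and the DESeq2 Wald test (adjusted p = 0.0382) and a filter at a mean of 10 CPM (edgeR adjusted p = 0.0454) in MC903 bone marrow cells.

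Stx7, a late endosomal syntaxin, and Stx11, a syntaxin of cytotoxic and other blood cells, were lower in every MC903 resident library than in every untreated resident library. Stx7 was at 83.3 to 119.9 CPM in untreated resident, 49.3 to 74.5 CPM in MC903 resident and 73.6 to 102 CPM in MC903 bone marrow libraries. Stx11 was at 65.8 to 110.4, 36.0 to 62.8 and 21.8 to 96.8 CPM. The log2 fold change in MC903 resident against untreated resident cells was -0.57 ± 0.197 for Stx7 (edgeR adjusted p = 0.161) and -0.88 ± 0.316 for Stx11 (0.182). Snap23 was at 205 ± 36.6, 154 ± 26.4 and 147 ± 44.8 CPM, Snap29 at 23.2 ± 8.75, 22.6 ± 3.52 and 24.5 ± 13.2 CPM, and Stx6 at 57.6 ± 25.8, 38.2 ± 8.78 and 62.9 ± 35.5 CPM (SD, n = 5, 5 and 4).

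None of the 4 SNARE assembly proteins was called by edgeR in any of the 3 comparisons. Stxbp2 encodes Munc18-2, the Munc18 protein that binds syntaxin-3 and syntaxin-11 and is required for mast cell degranulation. It was at 205, 183, 222, 216 and 224 CPM in untreated resident, 188, 214, 189, 256 and 188 CPM in MC903 resident, and 246, 322, 216 and 206 CPM in MC903 bone marrow libraries. The groups overlap throughout, and the log2 fold changes were -0.02 ± 0.170, 0.26 ± 0.180 and 0.24 ± 0.180 in the 3 comparisons (SE, edgeR adjusted p = 0.985, 0.479 and 0.506). Stxbp2 held 72.7% to 73.4% of the summed RPKM of the 4 assembly proteins on average in each group. Unc13d, which encodes the priming factor Munc13-4, was at 69.4 ± 19.2, 66.8 ± 10.5 and 83.0 ± 52.8 CPM, and its wide spread in MC903 bone marrow cells ran from 25.5 CPM in library 15 to 146 CPM in library 13. Stxbp3 (Munc18-3) was at 5.33 to 9.93 CPM in libraries 11, 13 and 14 and at 45.3 CPM in library 15. Cplx2 (complexin-2) ranged from 0.866 to 11.8 CPM over all libraries.

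Calcium sensors were low and uneven between libraries. Syt3, the most abundant of the 5 by RPKM, was at 0, 0.368, 0.972, 6.05 and 0 CPM in untreated resident, 0, 3.52, 5.27, 0.194 and 0.0840 CPM in MC903 resident, and 0.0835, 0.346, 22.9 and 4.09 CPM in MC903 bone marrow libraries. Its mean in MC903 bone marrow cells rests on library 14. Syt1, Syt2, Syt9 and Doc2a had 3 counts or fewer in 4, 4, 6 and 7 of the 14 libraries, and their highest levels were 6.04, 7.07, 11.5 and 1.30 CPM. Syt2 and Doc2a are the sensors best known from mast cell and neuronal release, and no fold is given for this role because so many libraries were at or near 0. Doc2a shares 39.4% of its exon bases with Ino80e on the opposite strand, and the strand setting of the counting is not given in the sources used here, so its reads cannot be assigned with certainty.

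Cd63 was the most abundant member in every group. It stood at 2070, 1970, 2048, 2173 and 3186 CPM in untreated resident, 3299, 2272, 2657, 3438 and 3194 CPM in MC903 resident, and 3300, 3282, 2986 and 2399 CPM in MC903 bone marrow libraries. Untreated resident libraries 1 to 4 lay below every library of MC903-treated mice, and library 5 lay among the latter. The log2 fold changes against untreated resident cells were 0.38 ± 0.167 in MC903 resident (SE, edgeR adjusted p = 0.328) and 0.39 ± 0.176 in MC903 bone marrow cells (edgeR adjusted p = 0.206). Without library 5 they were 0.61 (edgeR adjusted p = 0.0120) and 0.53 (edgeR adjusted p = 0.0185). With library 5 kept, Cd63 was also called as higher in MC903 resident cells in 4 other fits: TMM from abundant genes (edgeR adjusted p = 0.0252), a filter at a mean of 10 CPM (edgeR adjusted p = 0.0224), the DESeq2 Wald test (adjusted p = 0.0373) and limma (adjusted p = 0.0332). Over the 8 other fits the log2 fold change of Cd63 in MC903 resident cells ran from 0.15 to 0.56, and those that did not call it reached an edgeR adjusted p of 0.937. In MC903 bone marrow cells limma called Cd63 as well (adjusted p = 0.00731). Reads of the near-identical copy Cd63-ps, 12171 counts against 840043 for Cd63 over all libraries, show that the counting may have split some reads.

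Lamp1 and Lamp2 encode the main glycoproteins of lysosomal membranes, which mast cell granules share. Lamp1 was at 248 ± 43.9, 171 ± 61.8 and 241 ± 83.1 CPM and Lamp2 at 282 ± 57.8, 211 ± 47.9 and 292 ± 73.9 CPM (SD, n = 5, 5 and 4). Neither was called by edgeR without an offset. With the offset for gene length Lamp2 was called as higher in MC903 bone marrow than in MC903 resident cells (edgeR adjusted p = 0.0486). Both were highest of the MC903 bone marrow libraries in library 15, at 350.2 and 391 CPM. Across the 18 members of at least 10 RPKM, library 15 was the highest of its group for 6 and the lowest for 9, and library 5 was the highest of its group for 9. Libraries 7 and 8 were the lowest of theirs for 8 and 6.

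Lyst (ENSMUSG00000019726.12, chr13:13590397-13778803, plus strand) encodes the lysosomal trafficking regulator whose loss gives the giant granules of the beige mouse and of Chediak-Higashi syndrome. It was at 33.9, 39.0, 71.1, 49.1 and 16.2 CPM in untreated resident, 31.0, 19.7, 29.9, 50.1 and 36.0 CPM in MC903 resident, and 10.6, 14.7, 18.0 and 9.85 CPM in MC903 bone marrow libraries. All MC903 bone marrow libraries lay below all MC903 resident libraries, and library 5 of the untreated resident cells lay among them. Means were 41.8 ± 20.2 (SD, n = 5), 33.3 ± 11.1 (SD, n = 5) and 13.3 ± 3.80 CPM (SD, n = 4). Lyst fell by 1.65 ± 0.406 (SE) on the log2 scale in MC903 bone marrow against untreated resident cells (edgeR adjusted p = 0.0142), and its difference from MC903 resident cells was -1.33 ± 0.401 (edgeR adjusted p = 0.0940). The first call was lost without library 3 (edgeR adjusted p = 0.0556) and with the offset for gene length (-0.97, edgeR adjusted p = 0.206), and the second difference passed the threshold without library 5 (edgeR adjusted p = 0.0285), with a filter at a mean of 10 CPM (edgeR adjusted p = 0.0287) and in the DESeq2 Wald test (adjusted p = 0.00406). Without library 15 the first was -1.54 (edgeR adjusted p = 0.0353). With an exon length of 17459 bases, Lyst is the longest member.

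Dock5, a guanine nucleotide exchange factor reported to act in mast cell degranulation, was low in untreated resident cells. It was at 1.07, 1.23, 2.02, 3.26 and 6.10 CPM in untreated resident, 20.7, 10.6, 16.2, 25.5 and 3.61 CPM in MC903 resident, and 10.2, 7.48, 11.9 and 4.19 CPM in MC903 bone marrow libraries. All but library 10 of the MC903 resident libraries lay above the untreated resident range. The log2 fold change was 2.48 ± 0.695 (SE) in MC903 resident against untreated resident cells, just short of the threshold (edgeR adjusted p = 0.0677). It passed without library 5, 10 or 15 (adjusted p down to 0.0219 in edgeR). In 5 of the 7 other fits that gave it a value it also passed, with DESeq2's size factors, TMM factors from abundant genes, the DESeq2 Wald test, limma and a fit of only the groups compared.

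**Figure D4:**
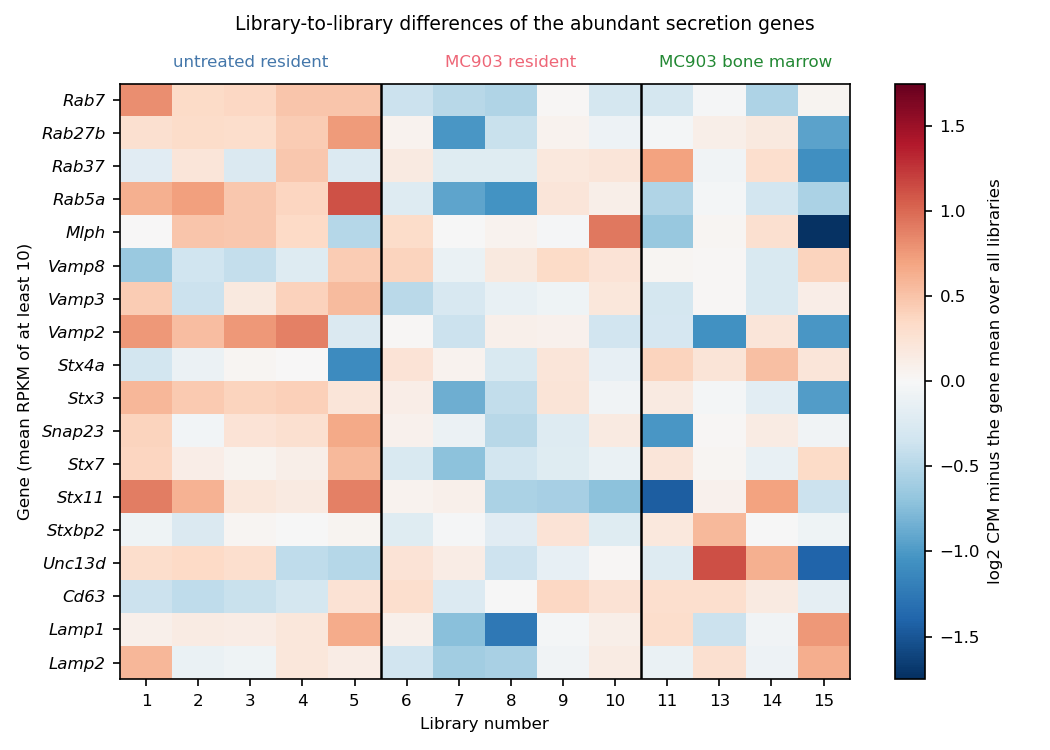
Log2 CPM minus the gene's mean over all libraries for the 18 members of at least 10 RPKM (rows) in each library (columns, by number, with lines between groups), in a colour scale from blue (lower) to red (higher). Rab7, Rab5a and Rab27b are red in untreated resident libraries, and the strongest single value is the low Mlph of library 15 (-1.73).

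Ratios of 2 members within a library do not depend on a factor that scales the whole library. The offset for gene length is no such factor and can change them. Of the ratios computed, 3 were chosen after the values were seen and are given with no test. These 3 separate or nearly separate untreated resident libraries from those of MC903-treated mice, while the 2 MC903 groups overlap in all 3. Stx4a over Stx3 in RPKM was 0.424 to 0.826 in untreated resident, 0.999 to 1.995 in MC903 resident and 1.24 to 2.41 in MC903 bone marrow libraries, so Stx4a was the less abundant of the pair in all 5 untreated resident libraries and the more abundant in all but library 10 of the others, where both were level. Rab7 over Cd63 was 0.192 to 0.371, 0.103 to 0.138 and 0.101 to 0.189, with no overlap between untreated resident and other libraries. Its upper MC903 value came from library 15 and its lower untreated value from library 5. Vamp8 over Vamp3 was 0.945 to 2.07, 2.09 to 3.68 and 2.02 to 2.57, with untreated resident library 2 reaching into the MC903 bone marrow range. Rab5a over Rab7, by comparison, overlapped between all groups, at 0.131 to 0.233, 0.104 to 0.199 and 0.0977 to 0.174. So did Rab27b over Rab27a, Vamp8 over Vamp2 and Rab3d over Rab3a. Stxbp2 over Stxbp3, Vamp2 over Vamp3 and Lyst over Mlph, the rest of those computed, overlapped as well. A ratio shows unequal change of 2 genes and not which of them changed.

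**Figure D5:**
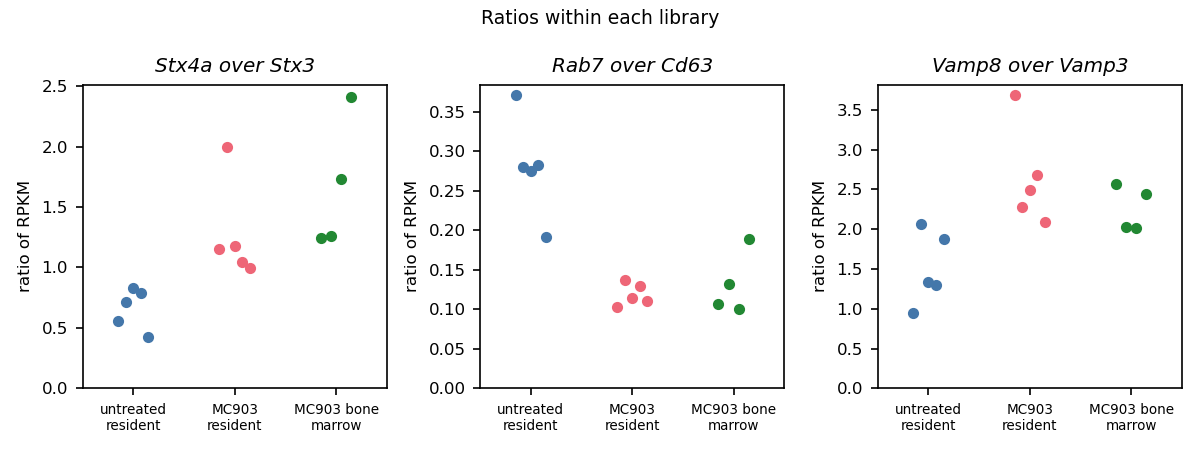
Ratios of RPKM within each library for Stx4a over Stx3, Rab7 over Cd63 and Vamp8 over Vamp3, with 1 point per library in the 3 groups. The Stx4a to Stx3 ratio lies at or under 0.826 in untreated resident libraries and at or over 0.999 in all others, and the Rab7 to Cd63 ratio is highest in untreated resident libraries.

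The pathway around these members was read from lists of 130 further genes, also chosen with earlier results known. Of these, 129 were matched and 122 tested. In MC903 resident against untreated resident cells 1 was higher and 4 were lower, 4.10% of those tested, against 2.25% of all genes and 5.48% of genes of at least 10 CPM. In MC903 bone marrow cells, 5 were higher and 1 lower than in MC903 resident cells (4.92%, against 2.27% and 5.21%), and 3 were higher and 3 lower than in untreated resident cells (4.92%, against 6.87% and 15.3%). No gene among the 22 other SNAREs, the 8 other effectors and motors and the 10 other calcium sensors tested was called in any comparison. The median log2 fold changes over the 122 genes were -0.07, 0.05 and -0.08.

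Rab38, a Rab of lysosome-related organelles, was called in all 3 comparisons. Its mean was 45.9 ± 10.9 CPM in untreated resident (SD, n = 5), 118 ± 28.9 in MC903 resident (SD, n = 5) and 269 ± 57.6 in MC903 bone marrow cells (SD, n = 4), with no overlap between any of the groups. It rose by 1.36 ± 0.219 (SE) on the log2 scale in MC903 resident against untreated resident cells (edgeR adjusted p = 0.00103), and by 1.19 ± 0.228 in MC903 bone marrow against MC903 resident cells (edgeR adjusted p = 0.00541). The first of these was lost with the offset for gene length (edgeR adjusted p = 0.177), and both held without any 1 library. Rab32, the close relative of Rab38 with a like role, fell by 0.998 ± 0.189 (SE, log2) in MC903 resident cells (edgeR adjusted p = 0.00422) from a mean of 479 ± 115 CPM to 240.0 ± 40.1 CPM, a call that was lost without libraries 7, 8 and 15.

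Unc13b, which encodes the priming factor Munc13-2, was at 79.5 ± 9.26 CPM in untreated resident (SD, n = 5), 67.3 ± 14.6 in MC903 resident (SD, n = 5) and 14.4 ± 9.34 in MC903 bone marrow cells (SD, n = 4). It fell by 2.23 ± 0.340 (SE) on the log2 scale in MC903 bone marrow against MC903 resident cells (edgeR adjusted p = 0.000839) and by 2.46 ± 0.344 against untreated resident cells (edgeR adjusted p = 8.53e-05). Both held in all fits run for it. Among the members, its relative Unc13d was not called. Rab4a, a Rab of endosome recycling, was at 69.9 ± 10.2, 47.4 ± 19.1 and 155 ± 41.5 CPM, and rose by 1.71 ± 0.273 (SE) in MC903 bone marrow against MC903 resident cells (edgeR adjusted p = 0.00131). Rab8b, a Rab of exocytic transport, was at 186 ± 31.3, 93.6 ± 21.9 and 186 ± 18.2 CPM, and so was called lower in MC903 resident than in untreated resident cells (edgeR adjusted p = 0.00506) and higher in MC903 bone marrow than in MC903 resident cells (edgeR adjusted p = 0.00876). Both calls of Rab8b were lost without libraries 7, 8 and 15.

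Exoc7, a subunit of the exocyst tethering complex, was at 69.5 ± 19.5, 27.2 ± 12.2 and 68.6 ± 17.0 CPM, and was called lower in MC903 resident than in untreated resident cells (edgeR adjusted p = 0.0193) and higher in MC903 bone marrow than in MC903 resident cells (edgeR adjusted p = 0.0310). The former was lost without library 1, 2, 8 or 9 and with TMM from abundant genes. The latter was lost without any 1 of libraries 5, 7, 8, 9, 10, 11, 13 and 14, with DESeq2's size factors, with TMM from abundant genes and in a fit of only the groups compared. Both were lost without libraries 7, 8 and 15 together. The tetraspanin gene Cd82 fell by 1.001 ± 0.222 (SE) on the log2 scale in MC903 resident cells (edgeR adjusted p = 0.0154), a call lost with TMM from abundant genes, without library 2 or 3, or without libraries 7, 8 and 15 together. Against untreated resident cells, MC903 bone marrow cells had higher Rab1b (1.24 ± 0.252, edgeR adjusted p = 0.00332) and Rab4a (1.15 ± 0.270, edgeR adjusted p = 0.0105), and both calls held without any 1 library and in all 8 other fits. Rab14 and Rab32 were lower there by 0.68 and 0.77 (edgeR adjusted p = 0.0175 and 0.0219), and both calls were lost with the offset for gene length, without library 1, and without library 14 for Rab14 or 11 for Rab32. That of Rab14 was also lost with no filter on low counts. Rab8a was higher in MC903 bone marrow than in MC903 resident cells (0.81 ± 0.214, edgeR adjusted p = 0.0480), a call that held without library 4 or 10 and was lost without any 1 of the other 12 and in 4 of the 8 other fits.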

How the data were processed

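Per the labels' protocols, cDNA of small sorted pools was made with SMART-Seq HT and libraries with Nextera XT. The deposited table held raw read counts per gene as whole numbers, with exon coordinates and exon length per the file headers. STAR, featureCounts and the build mm10 (GRCm38) are named in the submitters' processing notes. Versions and the strand setting are not given in the sources used here. All 14 count columns were used, and 55394 of 55487 identifiers had a symbol in the GENCODE names. Libraries were grouped by their labels, and no pairing was used; number 12 of the series was not analysed here.

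Genes were filtered with filterByExpr (minimum count 10, minimum total 15), which kept 21014. A single model of 3 groups was fitted with edgeR 4.0.16 in R 4.3.3 (TMM, robust glmQLFit, glmQLFTest, common dispersion 1.33), and p-values were adjusted over all genes tested by the Benjamini-Hochberg method. Genes with an adjusted p under 0.05 are called, and rose or fell refers to them. CPM are counts over TMM-scaled totals, RPKM are CPM per kilobase of exon length, and SE was taken as the size of the log2 fold change divided by the root of the F statistic. The reads carry no molecular identifiers, so amplified copies of a molecule are counted apart. Of the members, every library's value is given for those called and for the one with the highest RPKM in each role, and other members named were chosen after their values were seen. Pathway genes are named when called with at least 5 CPM in the higher group, at most 5 per direction. Marker lists of 10 cell types were summed per library. Promoter windows are RefSeq's for GRCm38.p6, and Rab27b, Rab37, Vamp2, Vamp3, Unc13d, Sytl2, Dock5 and Doc2a had none. The scripts were tested on simulated data.

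The members and lists were chosen with earlier results of these data known. The alternatives were DESeq2 size factors, TMM from genes of at least 10 CPM, an offset for gene length in 20 bins, other filters, the DESeq2 1.42.0 Wald test, limma 3.58.1 with voomWithQualityWeights, fits of the groups compared, leaving out each library, and a minimum log2 fold change of 1. Leaving out libraries 7, 8 and 15, those with the most genes detected, was added after seeing the data.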

Additional observations from a re-analysis of the deposited data

Results flagged for a closer look

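In each group, each member's libraries were examined for 1 library standing apart, its gap to the nearest other library being large against the group's range (Dixon's 95% critical value). Of 108 sets of libraries, 13 were marked, in 12 members. Chance marks about 1 in 20 where values are normally distributed. For CPM, many of them near 0, the rate was not established. Library 15 accounts for 4 of them and library 5 for 3. In untreated resident cells, Rab7 was at 545 CPM in library 1 against 392 to 435 CPM in the others, and Exph5 at 10.6 CPM against 0 to 1.42. In library 5, Cd63 was at 3186 CPM against 1970 to 2173, Lamp1 at 325 CPM against 220.2 to 237, and Cplx2 at 6.01 CPM against 1.27 to 2.61. Syt3 was at 6.05 CPM in library 4 against 0 to 0.972. In MC903 resident cells, Mlph was at 173 CPM in library 10 against 90.0 to 114, and Syt2 at 7.07 CPM in library 8 against 0 to 1.62. In MC903 bone marrow library 15, Stxbp3 was at 45.3 CPM against 5.33 to 9.93, Exph5 at 4.24 CPM against 0 to 0.0425, Doc2a at 0.909 CPM against 0 to 0.0851, and Syt1 at 0.556 CPM against 0 to 0.0693. Syt9 was at 11.5 CPM in library 14 against 0 to 0.909.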

How the results depend on the processing

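Of the 2 members called in MC903 resident against untreated resident cells, Rab7 stayed called in all 8 other single fits and in all 14 that left out 1 library, and Rab5a in 7 of 8 and 6 of 14. The count of called members in that comparison was 4 with TMM from genes of at least 10 CPM, 1 with the offset for gene length, 4 with the DESeq2 Wald test, 6 with limma, 0 without libraries 7, 8 and 15, 0 with a minimum log2 fold change of 1, and 1 to 4 when 1 library was left out (4 without library 5: Rab7, Cd63, Vamp8 and Dock5). The count over all genes, 473, became 305 with the offset, 1072 with the Wald test, 1358 with limma and 249 without the 3 libraries. In MC903 bone marrow against MC903 resident cells, called members numbered 3 with the offset (Sytl2, Stx4a and Lamp2, all higher), 1 without a filter, 1 with a filter at 10 CPM, 2 with the Wald test, 1 with limma and 0 to 1 with 1 library left out (1 without library 5 or 15). The count over all genes there, 477, became 1443, 748, 1720 and 2017 with the offset, no filter, the Wald test and limma, 303 in a fit of the 2 groups, and 295 to 750 with 1 library left out (lowest without library 7, highest without 15). The members' median log2 fold change was 0.54 with the offset. Against untreated resident cells, the 4 called members of MC903 bone marrow cells became 1 with the offset (Sytl2, higher), 7 with the Wald test and 2 to 6 with 1 library left out (2 without 1, 3 or 11). The count over all genes, 1443, became 2757 with the Wald test and 2194 with limma, and the members' median was -0.42 with limma.

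Scaling moved the balance of calls over all genes. In MC903 resident against untreated resident cells, 120 were higher and 353 lower with TMM, 207 and 294 with DESeq2 size factors, 251 and 266 with TMM from abundant genes, and 39 and 266 with the length offset. In MC903 bone marrow against MC903 resident cells the splits were 277 and 200, 167 and 242, 178 and 254, and 1279 and 164, and against untreated resident cells 734 and 709, 758 and 765, 846 and 726, and 939 and 313. No called member changed direction in any fit. The cause of these changes was not tested. No paired analysis was possible because the library numbers run on through the groups and the labels name no animal.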

Other observations

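The levels of other cell types' markers, summed per library, were low for keratinocytes (0.139 to 12.3 CPM over 6 genes), fibroblasts (0 to 31.9 CPM over 6 genes) and neurons or Schwann cells (0.416 to 17.0 CPM over 6 genes). Neutrophil markers reached 74.6 CPM in library 15, of which Csf3r alone gave 74.5 CPM, and did not exceed 0.0835 CPM in the other MC903 bone marrow libraries. T cell markers reached 83.8 CPM in library 13, of which Cd4 gave 79.9 CPM. Endothelial markers reached 39.7 CPM in the same library, all of it Pecam1, with Cdh5, Kdr and Emcn at 0 there. The 4 basophil markers summed to 316 to 1569 CPM, highest in MC903 bone marrow library 11. Mcpt8 gave 976 CPM of that sum, against 205, 83.2 and 46.5 CPM in libraries 13, 14 and 15 and 3.15 to 57.0 CPM in resident libraries. Cd200r3 was at 223 to 710 CPM over all libraries. Whether the level of Mcpt8 in library 11 has a part in the results was not tested. The melanocyte list summed to 70.9 to 162 CPM, most of it Mitf, which mast cells also express. In library 15 the macrophage list was led by Lyz2 (4817 CPM) and C1qb (2252 CPM).

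Some members share exon bases with genes on the opposite strand, whose reads cannot be told apart without a strand setting: 7.82% of Rab7 with Gm5577, 9.31% of Lamp1 with Grtp1 and 4.19% of Rab5a with Pp2d1. The total counts of these partners were 194, 205 and 120, against 99390, 67475 and 31905 for the members. For 3 members the partner held more counts than the member: Doc2a shares 39.4% of its exon bases with Ino80e (4361 counts against 88 for Doc2a), Snap29 shares 1.74% of its exon bases with Pi4ka (17019 counts against 7182 for Snap29), and Rab3a shares 1.30% with Mpv17l2 (10325 counts against 1390 for Rab3a). Rab7-ps1 held 861 and Rab5a-ps 87 counts.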
